A study of Mus musculus with 18 samples.

Results

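The cornified envelope is the protein shell that replaces the plasma membrane of keratinocytes in the outermost layers of the epidermis. Its filaggrin-type and envelope genes were followed here by their symbols in an FPKM table, as Flg, Flg2, Hrnr, Rptn, Lor, Ivl, Cnfn, Tgm1, Tgm3 and Casp14. Of these 10 symbols, 9 were found among 23951 genes, and Flg was not analysed here. FPKM is the number of fragments scaled to transcript length and to the library's mapped reads, so that levels can be compared between genes per length.

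RNA was sequenced from 18 libraries of sorted ear epidermis, 3 mice in each of 6 groups. DKO* mice (mice 814, 815 and 817) carry floxed JunB and c-Jun alleles, K5-Cre-ERT and the mT/mG reporter on a mixed background. Controls (Co, mice 810, 825 and 828) carry Cre and the reporter, and are wild type or heterozygous for both genes, so that some control cells may lack an allele. Mice of both sexes were 8 weeks old and were given 4 daily injections of 2 mg tamoxifen, and cells were taken at day 7. Bulge hair follicle stem cells (HF-SCs, CD45- CD49f high CD34+) and basal keratinocytes (b-KCs, CD45- CD49f high CD34-) were collected. In DKO* mice each was split into recombined mutant cells (GFP) and cells still red (Tom), which share the inflamed skin, while the labels of Co libraries name no colour. Cre is driven by the K5 promoter, and K5 is made by basal cells of epidermis, follicle and sebaceous gland. The 4 DKO* populations come from the same 3 mice, and the comparisons with Co share their control libraries.

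Keratinocytes leave the basal layer, switch on Krt1 and Krt10, and only then make the envelope. Involucrin (Ivl) and envoplakin are laid down first under the membrane, loricrin (Lor) then becomes the main reinforcing protein, and transglutaminases (Tgm1, Tgm3) join them by cross-links. The filaggrin-type proteins (Flg2, Hrnr, Rptn) are long repeat proteins with an S100 domain at the start, Casp14 is a protease that helps to break filaggrin down in the stratum corneum, and Cnfn (cornifelin) is a small envelope component. In healthy skin these transcripts belong to the granular layer, and basal and bulge cells hold little of them. The AP-1 factors JunB and c-Jun are known to bind envelope gene promoters.

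Lor, Ivl, Flg2, Hrnr and Rptn lie within 1.32 Mb of chromosome 3, in the epidermal differentiation complex (NCBIM37, the authors' build). Lor spans bases 91884197 to 91887064 and Ivl bases 92374834 to 92377637, both on the minus strand. On the plus strand are Flg2 (93004132 to 93024715), Hrnr (93123671 to 93137492) and Rptn (93197621 to 93203364). The other members are on chromosomes 14 (Tgm1), 2 (Tgm3), 10 (Casp14) and 7 (Cnfn).

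The AP-1 motif TGANTCA, which reads alike on both strands, was present in the 250 bases before the RefSeq start of 5 of the 10 genes (Flg, Flg2, Ivl, Lor and Rptn), beside 6.75% of 32851 RefSeq promoters. The grainyhead-like motif AACCGGTT was found in 0 of the 10 and in 0.116% of all promoters. TATAAA, the TATA box, was found in 6 of the 10 and in 12.4% of all, and all motifs were searched on both strands. A match describes the letters only. The 120 bases before the start of the 4 genes with a motif and values are printed to show where the letters of the AP-1 motif lie, with the match in capitals. The letters come from RefSeq (GRCm38.p6), and each run has 1 match in NCBIM37.
Lor (chr3:91887065-91887184, minus): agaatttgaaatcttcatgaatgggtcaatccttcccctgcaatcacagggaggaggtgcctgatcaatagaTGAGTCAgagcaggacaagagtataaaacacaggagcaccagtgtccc
Ivl (chr3:92377658-92377777, minus): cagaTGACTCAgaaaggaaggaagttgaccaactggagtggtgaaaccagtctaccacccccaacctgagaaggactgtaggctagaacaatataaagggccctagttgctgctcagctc
Flg2 (chr3:93001075-93001194, plus): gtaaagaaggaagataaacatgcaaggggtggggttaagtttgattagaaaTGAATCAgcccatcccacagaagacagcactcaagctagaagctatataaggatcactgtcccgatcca
Rptn (chr3:93197501-93197620, plus): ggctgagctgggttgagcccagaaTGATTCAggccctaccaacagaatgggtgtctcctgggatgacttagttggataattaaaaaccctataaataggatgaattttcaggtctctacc
The match begins 48 bases before the start in Lor, 69 in Flg2, 96 in Rptn and 116 in Ivl. The Flg2 start of RefSeq lies upstream of the annotated gene start given above.

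Depth and labels were checked first. From the steps of the FPKM values, libraries held an implied 16504000 to 26326500 reads. Jun and Junb (c-Jun and JunB), the deleted genes, had log2 fold changes against Co of -4.07 and -2.88 in mutant HF-SCs and of -4.30 and -3.69 in mutant b-KCs. In Tom cells the values were -1.30 and -0.56 for HF-SCs and -1.94 and -1.27 for b-KCs, which did not meet the limits given below. Cd34, the sorting marker, was at 639.8 to 889 FPKM in control HF-SCs and at 1.13 to 2.04 in control b-KCs. Krt14, a keratin of all basal cells, was listed at 0 in 3 of the DKO* b-KC libraries, so that an exact 0 in this table can be a failed estimate. Krt15, a bulge marker, was listed at 0 in the HF-SC Co library of mouse 828, beside 11261 and 11764 FPKM in mice 810 and 825. Both genes were kept in the marker lists, so that counts and medians of basal and bulge markers include these values. Where results are from limma, log2 fold changes are on the log2(FPKM + 1) scale, which understates the change of low genes, p-values are adjusted by the Benjamini-Hochberg method over all 12751 genes tested, and the word called means that a gene met both limits used here, an adjusted p under 0.01 and a log2 change of 2 or more in size. All 9 members passed the filter of at least 1 FPKM in at least 3 libraries. Flg2 passed it with 5 libraries, which include every b-KC Co library, and Rptn with 4, all from GFP cells.

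The envelope genes were present at low to moderate levels in the controls of both cell types. In HF-SC Co, mean levels ran from 7.17 ± 3.15 FPKM for Lor (SD, n = 3) and 5.01 ± 3.73 for Cnfn down to 0.119 ± 0.0796 for Rptn. In b-KC Co, Casp14 led with 35.8 ± 3.02 FPKM, ahead of Lor with 24.6 ± 4.84, Cnfn with 20.9 ± 8.84, Tgm3 with 20.5 ± 3.68 and Ivl with 19.8 ± 5.79. Rptn was again last, at 0.156 ± 0.0402. Of the 9 members, 3 were called higher in b-KC Co than in HF-SC Co, beside 2.82% of all genes, and 0 were lower, beside 2.82% again. Tgm3, the transglutaminase of hair and upper epidermis, had 24.6, 18.9 and 17.8 FPKM in b-KC Co and 1.35, 1.42 and 0.99 in HF-SC Co (log2 fold change 3.24, SE 0.20, adjusted p = 5.82e-09). Casp14 (2.72, SE 0.61, adjusted p = 0.00157) and Ivl (2.05, SE 0.45, adjusted p = 0.00142) were also called. Without mouse 810 or mouse 828 Tgm3 was the 1 gene still called, with Ivl at 1.74 and 2.04 and Casp14 at 2.70 and 2.67, and without mouse 825 Casp14 missed the limit on p (2.78, adjusted p = 0.0148). With libraries rescaled by median ratio Ivl was under the limit on size (1.97). For 8 of the 9 members every b-KC Co library was above every HF-SC Co library, as was so for 37.4% of all genes tested, and Rptn was the exception. The suprabasal markers, which label cells that have left the basal layer, were higher as well in b-KC Co, 7 of 8 called, with summed levels of 13347 to 15765 FPKM against 1207 to 1739. Of 7 sebocyte markers 5 were called higher too, with sums of 547 to 814 FPKM against 89.1 to 118. The part of such cells in the envelope levels of the b-KC gate was not tested. In bulk libraries fewer cells of a type and less RNA per cell cannot be told apart.

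**Figure D1:**
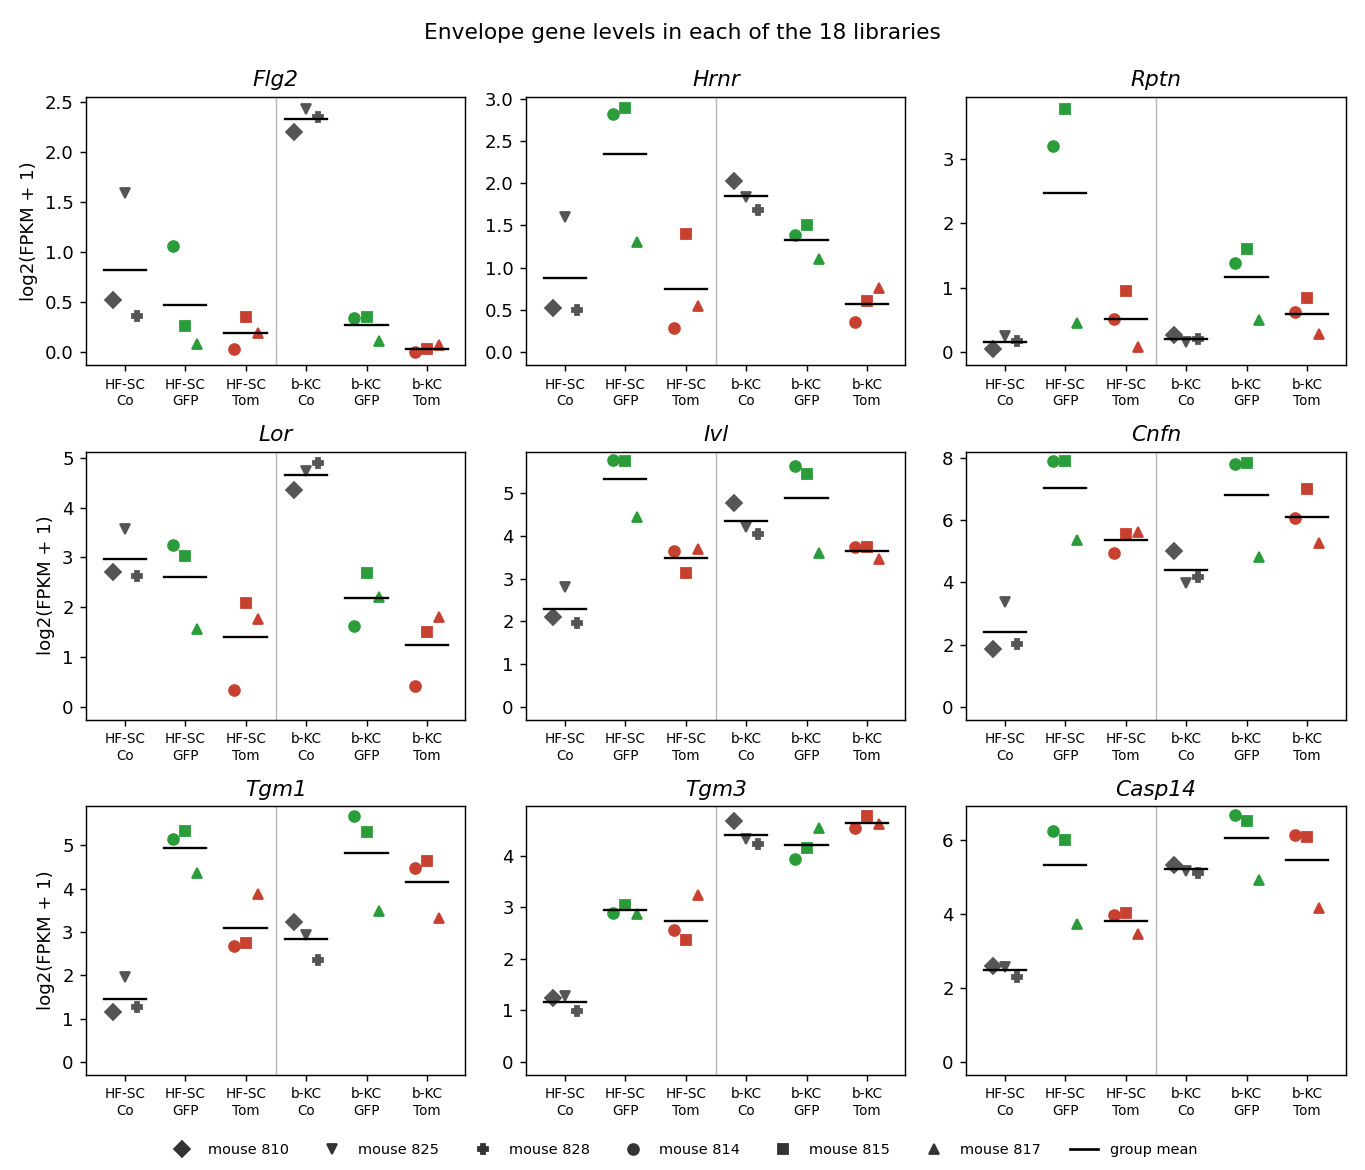
Level of each envelope gene, log2(FPKM + 1), in the 18 libraries by group, with 1 point per library, a symbol per mouse and a bar at the mean of the 3 log2 values. Lor and Flg2 are highest in b-KC Co, whereas Cnfn and Tgm1 are higher in GFP cells. In both GFP groups mouse 817 (triangles) lies below mice 814 and 815 for Cnfn, Tgm1, Ivl, Casp14, Rptn, Hrnr and Flg2, and for Lor in HF-SC GFP alone.

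In mutant HF-SCs, 5 of the 9 members rose against Co (Cnfn, Tgm1, Ivl, Casp14 and Rptn), beside 2.43% of all genes called higher, and 0 fell, beside 0.635% called lower. Rptn had entered the test only through 4 GFP libraries, and 4 members (Casp14, Cnfn, Ivl and Tgm1) were called without the filter, beside 1.19% of all genes. For Cnfn the mutant HF-SCs of mice 814, 815 and 817 had 237, 235 and 39.6 FPKM, and the controls 2.63, 9.31 and 3.09. The log2 fold change was 4.62 (SE 0.78, adjusted p = 0.000262). Even the lowest mutant library lay well above the highest control.
Tgm1, the membrane-anchored transglutaminase that attaches the first envelope proteins, stood at 34.5, 39.1 and 19.5 FPKM in the same order of mice and at 1.24, 2.88 and 1.40 in the controls (log2 fold change 3.48, SE 0.51, adjusted p = 8.12e-05). Ivl, a substrate of that enzyme, had 54.1, 53.1 and 20.7 FPKM against 3.27, 6.01 and 2.92 (3.03, SE 0.45, adjusted p = 9.25e-05). The groups of both genes were far apart.
Casp14 had 74.0, 63.1 and 12.3 FPKM against 4.98, 4.89 and 3.94 (log2 fold change 2.84, SE 0.61, adjusted p = 0.00178). Rptn (repetin), a filaggrin-type protein, had 8.20, 12.7 and 0.365 FPKM against 0.0353, 0.194 and 0.129 (2.32, SE 0.58, adjusted p = 0.00501). Its control values were worth 3.0 to 15.0 reads per library, so that a fold on the FPKM scale would carry large counting error. For both genes mouse 817 was much nearer to the controls than the other mice, with Rptn 22.5-fold below the lower of them. The calls of Casp14 and Rptn depended on single mice. Casp14 missed the limit on p without mouse 814 (2.39, adjusted p = 0.018), 815 (2.5, adjusted p = 0.0243) or 828 (2.75, adjusted p = 0.0132). Rptn missed a limit when any mouse but 817 was left out (1.67 to 2.36, adjusted p = 0.0196 to 0.0548), without the filter (2.32, adjusted p = 0.0183) and in a fit of the compared groups alone (adjusted p = 0.0412).
The remaining 4 members were not called. Tgm3 had 6.40, 7.27 and 6.33 FPKM against 1.35, 1.42 and 0.99, with a log2 fold change of 1.77 (SE 0.20, adjusted p = 8.22e-06), under the limit on size. Hrnr (hornerin), another filaggrin-type protein, had 6.08, 6.43 and 1.46 FPKM, overlapping the 0.435, 2.04 and 0.408 of the controls (1.47, SE 0.39, adjusted p = 0.0074). Lor had 8.49, 7.13 and 1.96 FPKM beside 5.54, 10.8 and 5.17, a log2 fold change of -0.35 (95% interval -1.42 to 0.71). Flg2 had 1.09, 0.198 and 0.0548 FPKM beside 0.432, 2.01 and 0.283, a log2 fold change of -0.36 (95% interval -0.93 to 0.22). Lor, Flg2 and Hrnr thus overlapped between the groups, and the other 6 members were higher in every mutant library, as was so for 24.7% of all genes tested.
Markers of other cells also differed between these libraries. Infundibulum and isthmus markers summed to 1278 to 2811 FPKM against 324 to 337 in the controls, with 1 of 6 called higher (Krt17). The median log2 fold change of 8 bulge markers was -1.09, with Cd34 at 161, 206 and 228 FPKM against 889, 639.8 and 680 in the controls. The 6 endothelial markers summed to 0.982 to 21.3 FPKM against 35.9 to 60.1, with Plvap called lower (-2.48). Sebocyte markers had a median log2 fold change of 0.99, with sums of 395, 322 and 109 FPKM for mice 815, 814 and 817 against 89.1 to 118 in the controls. Awat1, a wax synthase of sebocytes, had 5.46, 4.67 and 0.0603 FPKM in mice 814, 815 and 817 against 0.0699 to 0.115. Melanocyte markers had a median of 0.90, with sums of 5.23 to 15.8 FPKM against 2.63 to 4.50. Of both lists 0 markers were called by limma, and 4 of 7 sebocyte and 4 of 4 melanocyte markers had an unadjusted p under 0.05, beside 47.5% of all genes. The part of these cells in the envelope values was not tested.

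In the Tom fraction of the HF-SCs, 1 of the 9 members was called higher (Cnfn), beside 3.61% of all genes, and 0 lower, beside 0.478%. Cnfn had 29.7, 45.5 and 47.9 FPKM in the libraries of mice 814, 815 and 817, all above the controls (log2 fold change 2.94, SE 0.78, adjusted p = 0.0065). Tgm3, with 4.90, 4.16 and 8.47 FPKM, was under the limit on size at 1.56 (SE 0.20, adjusted p = 2.16e-05). Tgm1, with 5.38, 5.65 and 13.7 FPKM, had a log2 fold change of 1.63 (adjusted p = 0.0176), and Ivl, with 11.6, 7.75 and 11.9 FPKM, one of 1.2 (adjusted p = 0.0424). Casp14 had 14.6, 15.4 and 10.0 FPKM, at 1.34 (adjusted p = 0.0868). Each of these 5 genes was above every control library in every Tom library, as was so for 24.4% of all genes tested. The call of Cnfn was lost without mouse 810, 814, 815 or 828 (2.66 to 3.16, adjusted p = 0.0187 to 0.036) and without the filter (adjusted p = 0.0219).
Lor went the other way, with 0.272, 3.23 and 2.42 FPKM, all below the controls (log2 fold change -1.56, adjusted p = 0.0195, not called). Flg2 had 0.0236, 0.273 and 0.141 FPKM, also below every control (-0.63, adjusted p = 0.0721), as was so for 24.6% of all genes tested. Hrnr, with 0.221, 1.65 and 0.466 FPKM (-0.12), and Rptn, with 0.423, 0.927 and 0.0561 FPKM (0.35), overlapped with the controls. The HF-SC Tom libraries also held endothelial transcripts, with all 6 endothelial markers called higher and summed at 345 to 1059 FPKM against 35.9 to 60.1 in HF-SC Co. Bulge markers had a median log2 fold change of -1.15, with Lhx2 called lower (-2.29). The part of such cells in the Tom values was not tested. Tgm2, a transglutaminase that endothelial cells also make, was called higher in the same libraries (2.59).

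In b-KCs, Lor and Flg2 were called lower in both DKO* fractions. In b-KC GFP these were 2 of the 9 members, beside 0.588% of all genes called lower, while 0 members were called higher, beside 1.29%. Lor had 2.10, 5.44 and 3.65 FPKM in mutant b-KCs of mice 814, 815 and 817, against 19.3, 25.8 and 28.8 in the controls (log2 fold change -2.48, SE 0.50, adjusted p = 0.00142). Flg2, a filaggrin-like protein of the granular layer, had 0.27, 0.28 and 0.0797 FPKM against 3.60, 4.39 and 4.10 (-2.06, SE 0.27, adjusted p = 6.12e-05). The groups of both genes were far apart. Flg2 had entered the test through 5 libraries, 3 of them from b-KC Co, and without the filter it was called at an adjusted p of 0.000403 and Lor at one of 0.00666, beside 0.292% of all genes called lower. Lor missed the limit on p without mouse 828 (-2.36, adjusted p = 0.0119) and with a pseudocount of 0.1 (-2.77, adjusted p = 0.0107).
Tgm1 and Cnfn stood higher in the same libraries without being called. Tgm1 had 50.0, 38.4 and 10.1 FPKM against 8.34, 6.63 and 4.11, just under the limit on size (1.98, SE 0.51, adjusted p = 0.0069), and was called with the pseudocount of 0.1 (2.12, adjusted p = 0.0075). Cnfn had 221, 226 and 27.1 FPKM against 31.0, 14.8 and 16.8, so that mouse 817 overlapped the controls (2.43, SE 0.78, adjusted p = 0.0212). Rptn, at 1.60, 2.02 and 0.42 FPKM against 0.197, 0.117 and 0.154, was above every control (0.95, adjusted p = 0.196), and Hrnr, at 1.61, 1.83 and 1.14 FPKM against 3.06, 2.57 and 2.21, below every control (-0.52, adjusted p = 0.296). Casp14 (102, 89.6 and 29.4 FPKM against 39.3, 34.6 and 33.6), Ivl (48.5, 42.9 and 11.2 against 26.4, 17.5 and 15.6) and Tgm3 (14.3, 16.9 and 22.1 against 24.6, 18.9 and 17.8) overlapped the controls, with log2 fold changes of 0.84, 0.55 and -0.20. In all, 2 members were above and 3 below every control library, beside 28% and 31% of all genes tested. With mouse 817 left out, Cnfn was called at 3.43 (adjusted p = 1.47e-05) and Tgm1 at 2.65 (adjusted p = 2.14e-06), while Flg2 was just under the limit at -1.98 (adjusted p = 0.000101).

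In the Tom fraction of the b-KCs, Lor and Flg2 were again the 2 members called lower, beside 1.51% of all genes, and 0 members were called higher, beside 1.25%. Lor had 0.345, 1.85 and 2.5 FPKM (log2 fold change -3.41, SE 0.50, adjusted p = 8.06e-05). Flg2 was listed at 0 for mouse 814 and at 0.0198 and 0.0527 for the others (-2.29, SE 0.27, adjusted p = 1.40e-05), values worth only a few reads. Without the filter the same 2 members were called, Flg2 at an adjusted p of 0.000109 and Lor at one of 0.000628, beside 0.764% of all genes. Hrnr, at 0.279, 0.518 and 0.697 FPKM against 3.06, 2.57 and 2.21, was below every control without being called (-1.27, adjusted p = 0.0145). Tgm1 was at 21.2, 23.8 and 9.01 FPKM (1.31, adjusted p = 0.0484), and Cnfn at 65.7, 125 and 37.4 FPKM (1.72, adjusted p = 0.082), both above every control. Ivl, at 12.3, 12.4 and 9.92 FPKM, was below every control library (-0.70, adjusted p = 0.216), and Tgm3 at 22.2, 26.2 and 23.4 FPKM overlapped them (0.23, 95% interval -0.21 to 0.66). Casp14 (69.4, 66.3 and 16.8 FPKM) overlapped them as well, and Rptn (0.546, 0.795 and 0.219 FPKM) was above each, with log2 fold changes of 0.25 and 0.38. In all, 3 members were above and 4 below every control library, beside 31.6% and 34% of all genes tested. Without mouse 817, Cnfn was called at 2.14 (adjusted p = 0.000618). Sebocyte markers summed to 150 to 384 FPKM in these libraries against 547 to 814 in the controls, and their part in the values was not tested.

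**Figure D2:**
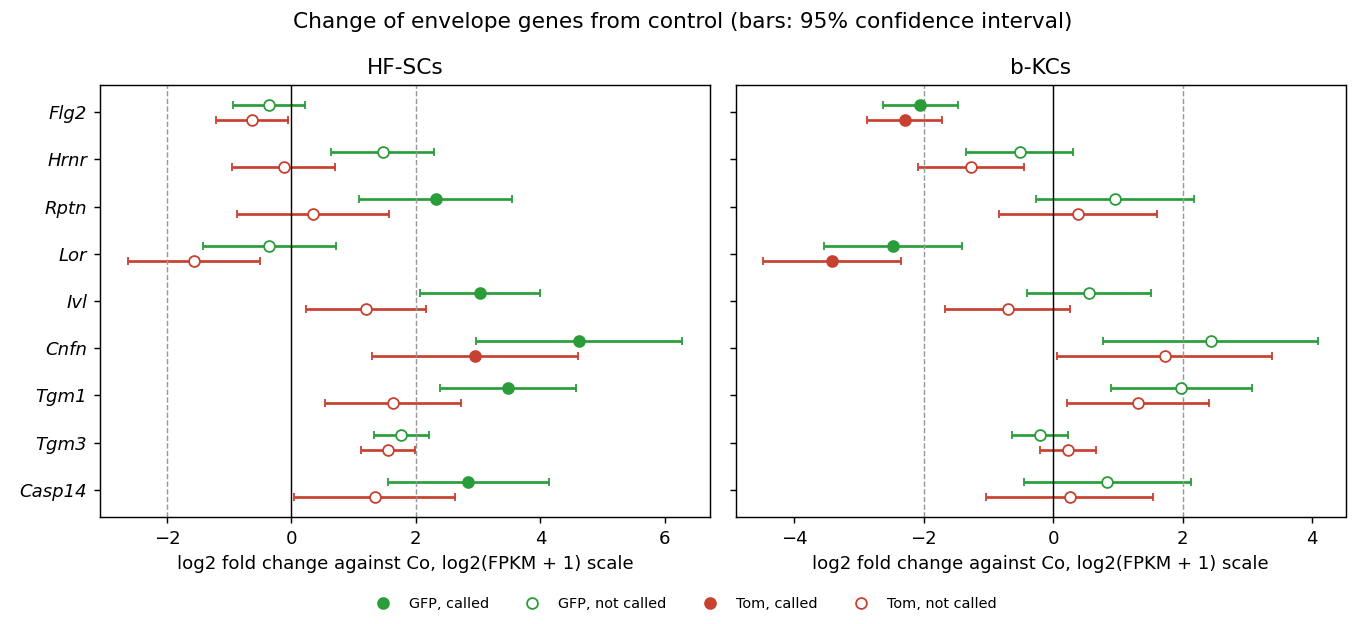
Log2 fold change of each envelope gene against its Co group, on the log2(FPKM + 1) scale, for HF-SCs (left) and b-KCs (right), with 95% confidence intervals, filled points for genes called and dashed lines at the limit of 2. In HF-SC GFP, 5 genes are filled on the right of zero, and in both b-KC fractions Lor and Flg2 are filled on the left.

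The changes in b-KCs and in HF-SCs were compared by an interaction term, coded as the b-KC change minus the HF-SC change. For GFP, 0 of the 9 members met both limits, beside 0.863% of all genes called in either direction, and for Tom again 0, beside 1.98%. At an unadjusted p under 0.05 there were 6 members for GFP, beside 28% of all genes, and 4 for Tom, beside 29%. The difference for Tgm3 was -1.97 for GFP (SE 0.29, adjusted p = 0.000474) and -1.33 for Tom (SE 0.29, adjusted p = 0.00518), both under the limit on size. That of Flg2 was -1.70 for GFP (SE 0.39, adjusted p = 0.0093) and -1.66 for Tom (SE 0.39, adjusted p = 0.00785). Flg2 had entered the test through 5 libraries, which include every library of b-KC Co, the group in which it was highest. With neither the filter nor mouse 817, a setting chosen after the data were seen, its GFP difference was -1.82 (adjusted p = 0.0436). Over the alternatives the adjusted p reached 0.0125 for GFP and 0.0314 for Tom in Tgm3, and 0.0773 and 0.0793 in Flg2. Ivl, with -2.48 for GFP, missed the limit on p (adjusted p = 0.0188), and was called with the mouse as a random block (adjusted p = 0.00425). With mouse 817 left out, 6 members were called lower for GFP (Casp14, Hrnr, Ivl, Lor, Rptn and Tgm3), beside 1.43% of all genes, and without mouse 825 2 were (Flg2 and Tgm3), beside 0.565%. With neither mouse 817 nor the filter 4 were called lower (Casp14, Ivl, Rptn and Tgm3), beside 0.614%. For Tom the count was 0 with any mouse left out.

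Mutant and non-mutant HF-SCs of the same mice were compared directly. Of the 9 members 0 were called between HF-SC GFP and Tom, beside 1.98% of all genes in either direction, with 7 at an unadjusted p under 0.05, beside 20%. Ivl (log2 fold change 1.84, adjusted p = 0.0167) and Tgm1 (1.85, adjusted p = 0.0339) were higher in every GFP library than in every Tom library, as was so for 8.41% of all genes tested. Hrnr (1.59, adjusted p = 0.0154) and Rptn (1.97, adjusted p = 0.0446) overlapped through mouse 817. Without that mouse 6 members were called higher in GFP, beside 0.706% of all genes, with log2 fold changes of 2.76 for Rptn, 2.65 for Cnfn, 2.53 for Tgm1, 2.38 for Ivl and 2.12 for Casp14 in addition to Hrnr. Rptn entered this test only through GFP libraries, and with neither the filter nor mouse 817, a setting chosen after the data were seen, 4 members were called (Casp14, Ivl, Rptn and Tgm1), beside 0.309% of all genes called higher. Endothelial markers differed in the same libraries, 5 of 6 called lower in GFP. Other lists stood higher in GFP. Their median log2 fold changes were 1.17 for infundibulum and isthmus markers (1 of 6 called), 1.05 for suprabasal markers (1 of 8) and 1.24 for sebocyte markers (0 of 7). The part of all these cells in the differences was not tested. In b-KCs 0 members were called between GFP and Tom, beside 0.0863% of all genes, and 1 (Ivl, 1.26, adjusted p = 0.222) had an unadjusted p under 0.05, beside 11.5%. Lor in GFP exceeded Lor in Tom by 1.21 in HF-SCs (95% interval 0.15 to 2.28) and by 0.93 in b-KCs (95% interval -0.14 to 2.0), without being called.

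The 3 DKO* mice did not behave alike. Mutant b-KCs of mouse 817 were below the lower of mice 814 and 815 by 8.16-fold for Cnfn, 3.84-fold for Ivl, 3.81-fold for Rptn, 3.79-fold for Tgm1 and 3.05-fold for Casp14. In the same cells Flg2 (3.39-fold) and Hrnr (1.41-fold) were below too, while Lor lay between the others. Mutant HF-SCs of this mouse were below them by 22.5-fold for Rptn, 5.94-fold for Cnfn, 5.13-fold for Casp14 and 4.15-fold for Hrnr. Lor (3.63-fold), Flg2 (3.61-fold), Ivl (2.57-fold) and Tgm1 (1.77-fold) were also below there. Tgm3 was within 1.01-fold in mutant HF-SCs and was higher in mouse 817 in mutant b-KCs. In Tom HF-SCs mouse 817 was instead the highest for Cnfn, Tgm1, Ivl and Tgm3. Jun and Junb were lowest in this mouse as well, at 30.4 and 38.6 FPKM in its mutant HF-SCs and at 29.6 and 37.2 in its mutant b-KCs. Sebocyte markers moved with this split, with sums of 109 FPKM in mutant HF-SCs of mouse 817 and of 322 and 395 in those of mice 814 and 815, and of 228, 796 and 671 in mutant b-KCs. Mgst1, a detoxifying enzyme, made up much of the b-KC sums (126, 630 and 527 FPKM in the same order), and Fasn, the fatty acid synthase, was highest in mouse 817 in mutant b-KCs (37.7 against 22.6 and 23.6) and between the others in mutant HF-SCs (21.4 against 15.4 and 26.9). Infundibulum and isthmus markers, which include Krt17 (a keratin of follicle and of activated epidermis), summed to 1278 FPKM in mutant HF-SCs of mouse 817 and to 2811 and 2191 in those of mice 814 and 815, and to 1430.3, 5325 and 4531 in mutant b-KCs. In mutant HF-SCs mouse 817 was also the lowest for endothelial (0.982 FPKM against 13.6 and 21.3), fibroblast (19.4 against 68.6 and 120.5), melanocyte (5.23 against 15.1 and 15.8) and hair shaft and root sheath sums (2.49 against 9.41 and 7.59). It was the highest for bulge sums, at 6204 FPKM against 3956 and 4929, of which Krt15 made up most (5405 against 3163 and 4004). Cd34 and Lgr5 were also highest in it, Postn was lowest (376 against 491 and 510), and the remaining bulge markers lay between. The leukocyte sum was 140 FPKM against 115 and 148, of which Cd74 made up most (123 against 110 and 144). The other leukocyte markers were all highest in mouse 817, among them Lyz2 (8.16 against 1.65 in each of the others) and Tyrobp (4.46 against 1.42 and 0.789). Suprabasal sums were lowest in mouse 817 in mutant HF-SCs (1860 FPKM against 2510 and 3164) and highest in it in mutant b-KCs (5870 against 4163 and 5349). The markers of mutant b-KCs were split. Krt2 (2129 FPKM against 158 and 302), Krt10, Dsg1a and Notch3 were highest in mouse 817. Krt1 (884 against 1002 and 1148), Calm4 (1438 against 2153 and 2752), Dsc1 and Krt77 were lowest in it. The fibroblast (5.85 against 3.62 and 5.06) and melanocyte sums (4.41 against 2.61 and 2.96) of mutant b-KCs were also highest in this mouse. The part of these cell types in the envelope levels was not tested.

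The order of the groups differed between the genes. For Lor and Flg2 the order began with b-KC Co and HF-SC Co and ended with b-KC Tom, and of the 5 neighbouring pairs only the first was apart in all libraries. Cnfn, Ivl, Rptn and Hrnr were led by HF-SC GFP, Tgm1 and Casp14 by b-KC GFP, and Tgm3 by b-KC Tom. HF-SC Co was last for Cnfn, Ivl, Tgm1, Tgm3, Casp14 and Rptn. In all, 11 of 45 neighbouring pairs had libraries apart, beside 23.1% of such pairs over all genes tested, and for Rptn 0 of 5 did. The levels of Cnfn, Tgm1, Casp14 and Ivl followed each other over the 18 libraries, with Pearson r of 0.83 to 0.96 between pairs. Lor and Flg2 followed each other at r = 0.90, and had r of -0.31 to 0.13 with those 4 genes. Libraries of 1 mouse or group are not independent, and the correlations are given as a description.

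**Figure D3:**
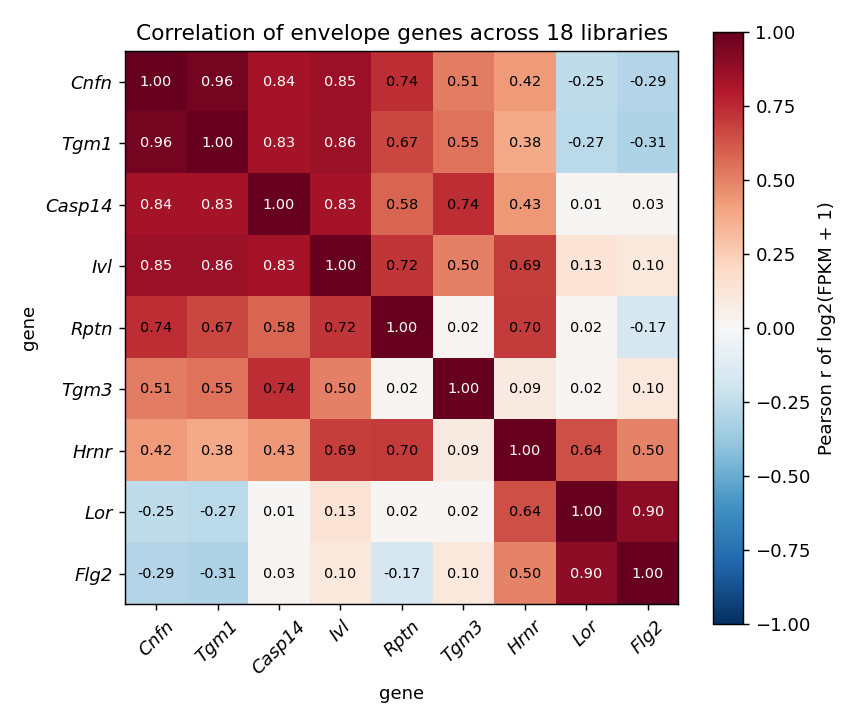
Pearson r of log2(FPKM + 1) between envelope genes over the 18 libraries, from -1 (blue) to 1 (red). Cnfn, Tgm1, Casp14 and Ivl form a block of 0.83 to 0.96, Lor and Flg2 a pair at 0.90, and Hrnr has r of 0.64 with Lor and of 0.69 with Ivl.

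The other proteins of the envelope and of late differentiation were read from a list of 18 genes, 16 of them tested. In b-KC Co against HF-SC Co 3 were called higher (Krtdap at 2.96, Cst6 at 2.21 and Lypd5 at 2.19) and 2 lower, beside 2.82% of all genes in each direction. The lower ones were Ecm1 (-2.01) and the transglutaminase Tgm5 (-5.45), which had 616 to 804 FPKM in HF-SC Co and 11.3 to 19.6 in b-KC Co. The shares of all genes called higher and lower, beside which this list and the next ones are set, were 2.43% and 0.635% in HF-SC GFP, 3.61% and 0.478% in HF-SC Tom, 1.29% and 0.588% in b-KC GFP, and 1.25% and 1.51% in b-KC Tom. In HF-SC GFP 2 of the 16 were called higher and 1 lower. Lypd5, a surface protein of upper epidermis, had a log2 fold change of 3.30 (adjusted p = 0.000656), and Prr9, a proline-rich gene of the same complex on chromosome 3, one of 3.04 (adjusted p = 1.53e-05). Ecm1, a secreted matrix protein, fell by 2.39 on the log2 scale (adjusted p = 0.00035). In HF-SC Tom 2 were called higher (Prr9 at 2.84, beside Tgm2) and 0 lower, with 11 of 16 at an unadjusted p under 0.05, beside 51.6% of all genes. In b-KC GFP Prr9 was called higher (2.80) and Ecm1 lower (-2.07). In b-KC Tom 1 was called higher, Prr9 at 3.68, and 3 lower, Cdsn at -2.98 (adjusted p = 0.000729), Kprp at -2.90 (adjusted p = 0.00192) and Cst6 at -2.51 (adjusted p = 0.000213). Cdsn (corneodesmosin) holds corneocytes together, Kprp is a keratinocyte proline-rich protein and Cst6 is a protease inhibitor of the upper epidermis. The median log2 fold change of the 16 was 0.12 and -0.68 for GFP and Tom HF-SCs, and -0.43 and -0.87 for GFP and Tom b-KCs, beside -0.05 to -0.02 over all genes.

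Genes for the processing of profilaggrin, the precursor that is cut into filaggrin and then into amino acids, formed a list of 12, 9 of them tested. In HF-SC GFP Blmh, the protease that ends this breakdown, was called higher (log2 fold change 2.10, SE 0.40, adjusted p = 0.000776), with 259, 177 and 98.2 FPKM against 35.3, 36.4 and 41.9. In HF-SC Tom and in b-KC GFP 0 of 9 were called, with 5 and 6 at an unadjusted p under 0.05, beside 51.6% and 50.4% of all genes. In b-KC Tom Klk5, a protease that starts the shedding of corneocytes, was called lower (-3.23, adjusted p = 9.12e-05), as was its inhibitor Spink5 (-2.08, adjusted p = 0.001). Spink5 was the gene called between HF-SC GFP and Tom, higher in GFP by 2.18 (adjusted p = 0.00257). Padi1, Padi3 and Padi4, whose enzymes modify filaggrin, were under the filter.

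Suprabasal markers formed a list of 8, all tested. In HF-SC GFP Krt1, the first keratin of differentiating cells, was called higher (log2 fold change 2.84, adjusted p = 0.000239), as was the desmosomal cadherin Dsc1 (2.45, adjusted p = 0.000946), and 0 of the 8 were lower. In HF-SC Tom Krt1 was called higher (2.27) and Krt77, a keratin of differentiated ear epidermis, lower (-2.96). In b-KC GFP Krt77 (-3.35) and the cadherin Dsg1a (-2.38) were called lower, and in b-KC Tom Krt77 (-6.37), Krt2 (-4.83) and Dsg1a (-2.53). Krt1 itself was at 592 to 2442 FPKM in b-KC Tom beside 909 to 1073 in b-KC Co. The sum of the 8 markers was 13347 to 15765 FPKM for control b-KCs, 4163 to 5870 for those with GFP and 3614 to 5155 for those with Tom, and for HF-SCs it was 1207 to 1739 in controls, 1860 to 3164 with GFP and 1135 to 1896 with Tom. Lor and Flg2 fell in b-KC libraries whose suprabasal sum was lower too, and the part of suprabasal cells in that fall was not tested.

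**Figure D4:**
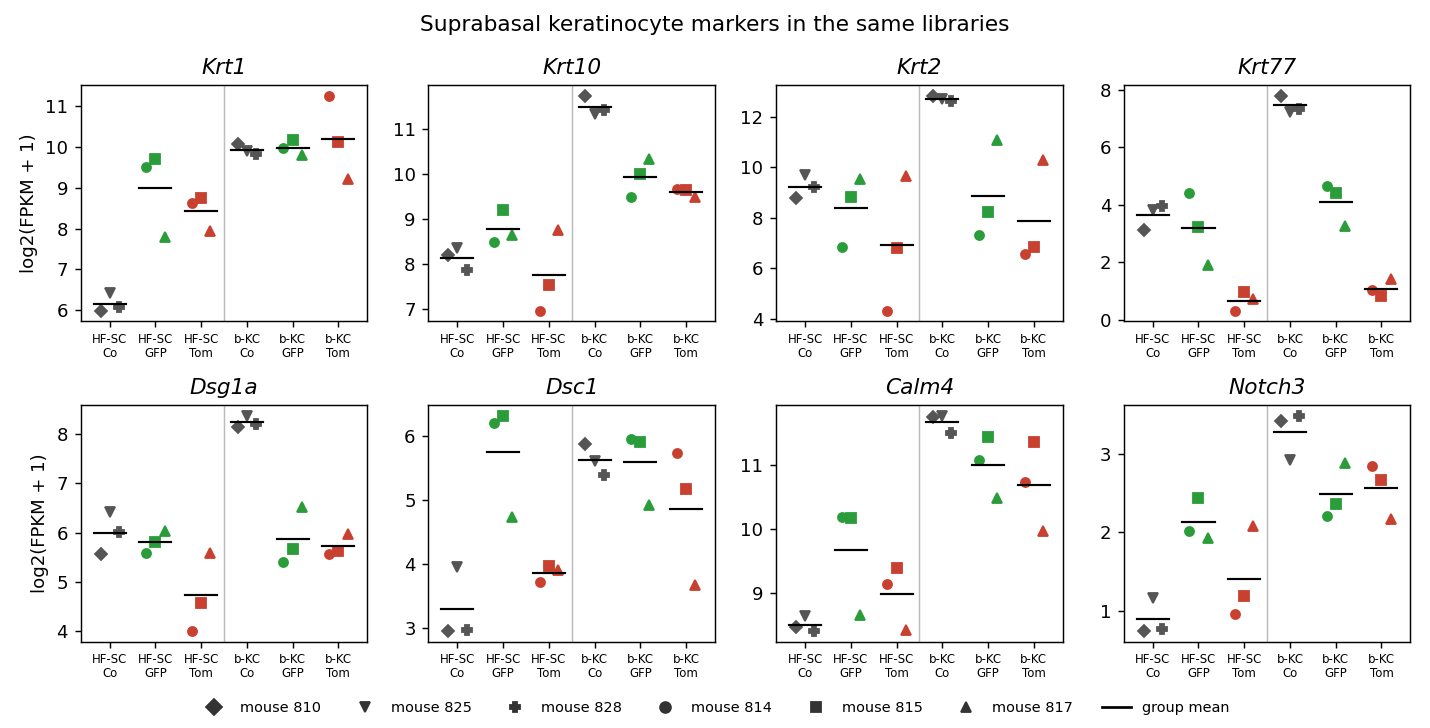
Level of 8 suprabasal keratinocyte markers, log2(FPKM + 1), in the 18 libraries by group, drawn as for the envelope genes, on vertical axes that need not start at 0. Krt77 and Dsg1a are highest in b-KC Co and lower in both DKO* fractions of b-KCs, while Krt1 and Dsc1 have their lowest group mean in HF-SC Co.

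Markers of other cells were read beside these values. Of 8 basal markers 0 were called in any comparison except Col17a1, lower in b-KC GFP (-2.05). Of 8 bulge markers 6 were called lower in b-KC Co than in HF-SC Co, with Cd34 at -8.24. The 12 hair shaft and inner root sheath keratins summed to 0.771 to 9.41 FPKM over all libraries, and of the 2 tested 0 were called by limma, with at most 2 at an unadjusted p under 0.05 in a comparison. Of 6 infundibulum and isthmus markers Krt17 was called higher in mutant HF-SCs (2.95) and mutant b-KCs (3.12), and Krt79 (-3.09) was called lower in b-KC Tom with Cst6. Of 7 sebocyte markers 3 were called lower in b-KC Tom (Cidea, Elovl3 and Scd1) and Scd1 in b-KC GFP (-2.10). Among leukocyte markers Cd74, which inflamed keratinocytes can also make, was called higher in all 4 populations (4.41 to 5.95), while Ptprc, which defines leukocytes and is the gene of the CD45 gate, stayed under 1 FPKM in all libraries. Endothelial markers were summed at 0.291 to 5.91 FPKM over the b-KC libraries. Of these, 3 were called lower in b-KC Co than in HF-SC Co (Plvap, Pecam1 and Emcn). Fibroblast markers were summed at 1.66 to 6.16 FPKM in b-KC libraries and at 13.9 to 120.5 in HF-SC libraries, and 3 (Col1a1, Col1a2 and Col3a1) were called lower in b-KC Co than in HF-SC Co. The 4 melanocyte markers were summed at 1.11 to 15.8 FPKM over all libraries, with 0 called by limma and at most 4 at an unadjusted p under 0.05 in a comparison.

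The 10 genes whose levels were most like the mean standardised level of the members over the 18 libraries had Pearson r of 0.92 to 0.95. They were Mpzl3 (0.95), Wfdc5, Il1f5, Dsc1, Pglyrp4, Gsdma, Slc26a9, Lypd5, Klk7 and Nccrp1 (0.92). Mpzl3 had 8.12 ± 1.59 FPKM in control HF-SCs, 27.5 ± 7.76 in mutant HF-SCs and 25.6 ± 4.40 in control b-KCs (SD, n = 3). Il1f5, the interleukin-36 receptor antagonist, had 3.38 ± 2.01 FPKM in control HF-SCs, 19.9 ± 13.3 in mutant HF-SCs and 14.8 ± 2.75 in control b-KCs. Klk7, the kallikrein protease that cuts corneodesmosin, had 8.86 ± 5.43, 47.4 ± 34.8 and 37.4 ± 15.7 FPKM in the same groups. Likeness is given over libraries that share mice and groups.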

How the data were processed

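The authors sorted the cells, made unstranded SMART-Seq v4 and Nextera XT libraries, mapped single reads of 51 bases to mouse build NCBI37/mm9 with TopHat2 2.0.10 and Bowtie 1.0.0 (2 mismatches, 20 multihits), and deposited 1 Cufflinks (2.2.1) FPKM value per gene and library. Without strand, overlapping genes are uncertain, and so are reads within the repeats of Flg2, Hrnr and Rptn and their relatives. Groups follow the sample labels. A minimum of 1 FPKM in 3 of the 18 libraries left 12751 genes. On log2(FPKM + 1), limma 3.58.1 (R 4.3.3) fitted the means of the 6 groups, using eBayes with a trend and Benjamini-Hochberg adjustment within each comparison, and the step was tested on simulated data. With 3 mice per group, p-values rest on the spread between libraries within groups, pooled over the 6 groups. The main fit has no term for the mouse, so comparisons between populations of the same mice are not paired in it. The mouse number in the labels marks the same animal, and same-numbered libraries deviated together (r of 0.08 to 0.70), so a mouse block was fitted as an alternative. Depth was read from the FPKM steps of 6946 genes with 1 transcript in the annotation, where 77.4% to 82.5% of the low values came within 0.1 of whole reads. Its floor of 3 reads covers counting error only, and Flg2 steps were not whole, so its read numbers are approximate. Genes named are the members, listed genes called in a comparison (up to 6 per list and comparison), the 10 genes most like the members, and Jun and Junb. Krt14, Krt15, Awat1, Mgst1, Ptprc, Lyz2, Tyrobp, Padi1, Padi3 and Padi4 fall outside this rule and were chosen after their values were seen. Members, lists and motifs were chosen with earlier results of these data known. Tables and plots were made in Python 3.11.15 (pandas 2.3.3, matplotlib 3.10.9).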

Additional observations from a re-analysis of the deposited data

Results flagged for a closer look

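For 2 envelope genes the change from Co differed between b-KCs and HF-SCs by an interaction term at an adjusted p under 0.01 (limma, Benjamini-Hochberg adjustment), although below the log2 limit of 2. Tgm3 differed by -1.97 for GFP (adjusted p = 0.000474, and 2.62e-05 to 0.0125 over 14 alternatives) and by -1.33 for Tom (adjusted p = 0.00518, and 0.00112 to 0.0314 over the alternatives). Its mean level was 1.25, 6.67 and 5.84 FPKM for Co, GFP and Tom HF-SCs, and 20.5, 17.7 and 23.9 for the same groups of b-KCs. Flg2 differed by -1.70 for GFP (adjusted p = 0.0093, and 0.0023 to 0.0773 over the alternatives) and by -1.66 for Tom (adjusted p = 0.00785, and 0.0019 to 0.0793). The alternatives include a fit without the filter. Flg2 had entered the test through 5 libraries, which include every library of b-KC Co, the group in which it was highest. Its level was 0.908 FPKM in HF-SC Co, with 2.01 in mouse 825 and 0.432 and 0.283 in the others, and 4.03 in b-KC Co.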

How the results depend on the processing

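Of 139 counts of members called, 9 were as reported, 101 were within 1.5 times of them and 29 were not. For HF-SC GFP against Co the 5 called became 3 to 5 with a mouse left out (3 without mouse 814, 815 or 828), beside 1.97% to 3.17% of all genes called higher. For HF-SC Tom the 1 called became 0 without the filter (beside 1.86% of all genes called higher), 3 with a pseudocount of 0.1 (6.47%), 2 with a log2 limit of 1 (14.9% in either direction, as for the shares that follow), 5 with an adjusted p under 0.05 alone (44.4%), and 0 to 1 with a mouse left out (0 without mouse 810, 814, 815 or 828). The 2 called in b-KC GFP became 4 at an adjusted p under 0.05 (41.6%), stayed at 2 with a pseudocount of 0.1 (Tgm1 in place of Lor, 4.14%), and became 1 to 3 with a mouse left out (1 without mouse 828). In b-KC Tom the 2 became 4 at that limit (45.9%), and 2 to 3 with a mouse left out. HF-SC GFP against Tom had 4 members at that limit (8.63%) and 0 to 6 with a mouse left out, the 6 without mouse 817. The 3 of the control comparison became 8 at that limit (51.9%) and 1 to 3 with a mouse left out (1 without mouse 810 or 828). The GFP interaction had 1 member with the pseudocount of 0.1 (1.82%), 4 at an adjusted p under 0.05 (12.5%), 2 with a log2 limit of 1 (4.34%), and 0 to 6 with a mouse left out (2 without mouse 825, 6 without mouse 817). The Tom interaction had 2 at either of those limits (15.8% and 6.85%). Between b-KC GFP and Tom and for the Tom interaction it was 0 with any mouse left out. With the mouse as a random replicate block the GFP interaction gave 1 member (Ivl, beside 1.27%), and the block changed no other call, nor did the fixed block of the 2 fractions. With neither mouse 817 nor the filter, a setting chosen after the data were seen, HF-SC GFP against Tom had 4 members and the GFP interaction 4.

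The sign turned in 14 of 1215 gene values, none of them called: without mouse 825, Flg2 (0.028, HF-SC GFP against Co), Hrnr (0.24, HF-SC Tom) and Rptn (-0.046, Tom interaction). Without mouse 817 it turned for Lor (0.17, HF-SC GFP), Rptn (-0.04) and Tgm1 (0.47, Tom interaction), without mouse 814 for Hrnr (0.10, HF-SC Tom), Casp14 (-0.089, b-KC Tom) and Flg2 (-0.10, HF-SC GFP against Tom), without mouse 815 for Casp14 (-0.057) and Tgm3 (-0.021, HF-SC GFP against Tom), without mouse 810 for Rptn (-0.032, controls) and Tgm1 (0.013), and with libraries rescaled by median ratio for Rptn (-0.011, Tom interaction). With a mouse left out these values ran from -0.65 to 0.028 (Flg2) and -0.67 to 0.17 (Lor) in HF-SC GFP, -0.45 to 0.24 (Hrnr) in HF-SC Tom, -0.089 to 0.90 (Casp14) in b-KC Tom, -0.10 to 0.47 (Flg2) and -0.021 to 0.50 (Tgm3) for HF-SC GFP against Tom, -0.032 to 0.12 (Rptn) in controls, and -0.046 to 0.11 (Rptn) and -0.75 to 0.47 (Tgm1) for the Tom interaction. The cause was not tested. Depth limits Flg2 and Rptn most, with 3 Flg2 values under 3 reads and the lowest Rptn value at 3.0 reads.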
